A study of Mus musculus with 4 samples.

Results

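Cohesin is the protein ring that holds sister chromatids together, and 8 genes for its subunits were followed here in mouse oocytes exposed to high hydrostatic pressure. They were chosen by name from the known make-up of the ring: the meiotic subunits Smc1b, Rec8 and Stag3, and the general subunits Smc1a, Smc3, Rad21, Stag1 and Stag2. The array carried 17 probes for these 8 genes, among 41174 probes under 27670 gene names. Rec8 is named Rec8L1 in the files and was matched through its RefSeq accession.

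Treated oocytes had been held at 20 MPa for 60 min at 37 °C. Control oocytes went through the same handling at the same temperature without the added pressure. Each of 4 two-colour arrays carried 1 treated pool in the red (Cy5) channel and 1 control pool in the green (Cy3) channel, with 50 oocytes in a pool. By the labels no array had the dyes the other way round, so dye and treatment cannot be told apart. The strain, the age of the females and the stage of the oocytes are not given in the sources used here, and each pool was amplified in 2 rounds before labelling. With pooled cells, fewer intact oocytes in a pool and less RNA in each oocyte cannot be told apart.

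The ring consists of an SMC1 and an SMC3 protein closed by a kleisin, RAD21 or REC8, to which a STAG protein binds. In meiosis SMC1B, REC8 and STAG3 take the places of SMC1A, RAD21 and STAG1 or STAG2. In mouse oocytes the meiotic ring is built before birth and has to hold through the long prophase arrest, and separase cuts REC8 to let the chromosomes part. RAD21, SMC1A, SMC3, STAG1 and STAG2 serve cohesion and the folding of chromatin in dividing and resting cells alike.

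Every value below is the light from a probe of 60 bases, so the sequences show which stretch of a transcript was read. They are shown for 4 genes in which probes at different places were detected in different numbers of pools, and for Smc1b. Capitals mark stop triplets (TAA, TAG or TGA) in any reading frame, read 5′ to 3′ in the sense of the transcript. Of the probes nearest to the 3′ end of a gene, and of the Smc1b probe, the first 30 bases are shown, and the probes further upstream are shown whole.
Rad21 3′ probe A_51_P384091: aTAAaattgctcttgcagttttcttttcaa
Rad21 upstream probe A_52_P39237: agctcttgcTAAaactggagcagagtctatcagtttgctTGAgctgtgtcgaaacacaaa
Smc1a 3′ probe A_51_P123047: ctatcatggatcgcaTGAcaccatgcccct
Smc1a upstream probe A_52_P12481: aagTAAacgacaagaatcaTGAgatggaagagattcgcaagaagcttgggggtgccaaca
Stag2 3′ probe A_52_P298172: TGAacgtttgcttgtccttTAAgaTAAaaa
Stag2 upstream probe A_51_P126540: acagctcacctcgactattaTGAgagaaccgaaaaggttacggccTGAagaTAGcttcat
Rec8 3′ probe A_51_P246677: gggcccctccTGAttcgtcctggacccaaa
Rec8 upstream probe A_52_P459732: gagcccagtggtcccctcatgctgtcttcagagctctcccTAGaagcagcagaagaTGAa
Smc1b probe A_51_P244303: actcagcTAAggagtgctcagtgtcattcc

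In mouse build mm7, as the files give positions, the Rad21 3′ probe lies at chr15:52016899-52016958 on the minus strand and the upstream Rad21 probe at chr15:52018305-52018364. The Smc1a probes lie at chrX:146820559-146820618 and chrX:146805420-146805479, both on the plus strand. The Stag2 probes shown lie at chrX:37368233-37368292 and chrX:37358417-37358476, also on the plus strand. For Rec8 the 3′ probe lies at chr14:50492672-50492731 on the plus strand. The upstream Rec8 probe is mapped to chr14:50491716-50492100, a span longer than the probe itself, so it is aligned in separate pieces. The Smc1b probe lies at chr15:85147084-85147143 on the minus strand. The whole 60 bases of the Smc1b probe and of the Stag2 3′ probe hold a stop triplet in all 3 forward frames, so 0 frames are open through them. The upstream Rad21 probe has 2 open frames, and the upstream probes of Smc1a, Stag2 and Rec8 have 1 each. The annotation of exons and untranslated regions in this build was not used here. In 123 pairs of probes of different subunits the longest shared run was 10 bases, between Rec8 and Stag1.

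Over the whole array, 7049 to 11155 of 43379 spots were well above background in a treated pool and 8309 to 10837 in a control pool, by the scanner software's own call. Replicate 1 stood apart, and the labels are the only source for its dye direction. Its log2 ratios correlated at -0.17, -0.15 and -0.19 with those of replicates 2, 3 and 4, while the other pairs of arrays stood between 0.09 and 0.29 over all probes. Among the brightest spots, the treated to control ratio of intensity over background was 2.56 for replicate 1, whereas it was 0.25 to 0.39 for replicates 2 to 4, taken at the top percentile of each channel. Every mean below follows the labels, and because of these values the results that rest on replicate 1 are also given with its sign turned. Oocyte markers were chosen to check the label, and each pool had 9 or 10 of the 14 probes on that list well above background. Gdf9 and Zp3 were well above it in 4 treated and 4 control pools. So were H1f8, Bmp15, Ddx4, Oosp1 and Dppa3. The genes on the list missed in most pools were Nlrp5, Zp2, Figla and Mos. Nlrp5 was detected in no pool, and Zp2 and Figla in 0 treated pools and at most 1 control pool. Mos was detected in 1 treated and 2 control pools. The submitters call the 4 replicates biological, and the number of arrays limits the precision of every mean.

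Most cohesin subunits were close to the detection limit in these oocytes, and the meiotic ones other than Rec8 were mostly below it. Rec8 was the meiotic subunit with probes well above background in both kinds of pool. Smc1b was well above background in 0 of 4 treated pools and in 2 of 4 control pools. Stag3 was not well above background in any of the 8 pools. Among the general subunits, the 3′ probes of Rad21 and Stag2 were well above background in all 8 pools, and Smc1a and Stag1 had probes well above it in most.

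By pool, 7, 7, 4 and 4 of the 17 cohesin probes were well above background in treated replicates 1 to 4, and 7, 8, 8 and 11 in control replicates 1 to 4. Fewer cohesin probes were thus detected in the treated pool than in the control pool on 3 of 4 arrays and equally many on replicate 1. On those arrays fewer spots of the whole array were also detected in the treated pool: 7192, 7049 and 8146 in treated replicates 2 to 4, against 9505, 10102 and 10837 in control replicates 2 to 4. Replicate 1 had 11155 such spots in the treated pool and 8309 in the control pool. Whether the cohesin probes depart from the array as a whole was not tested.

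**Figure D1:**
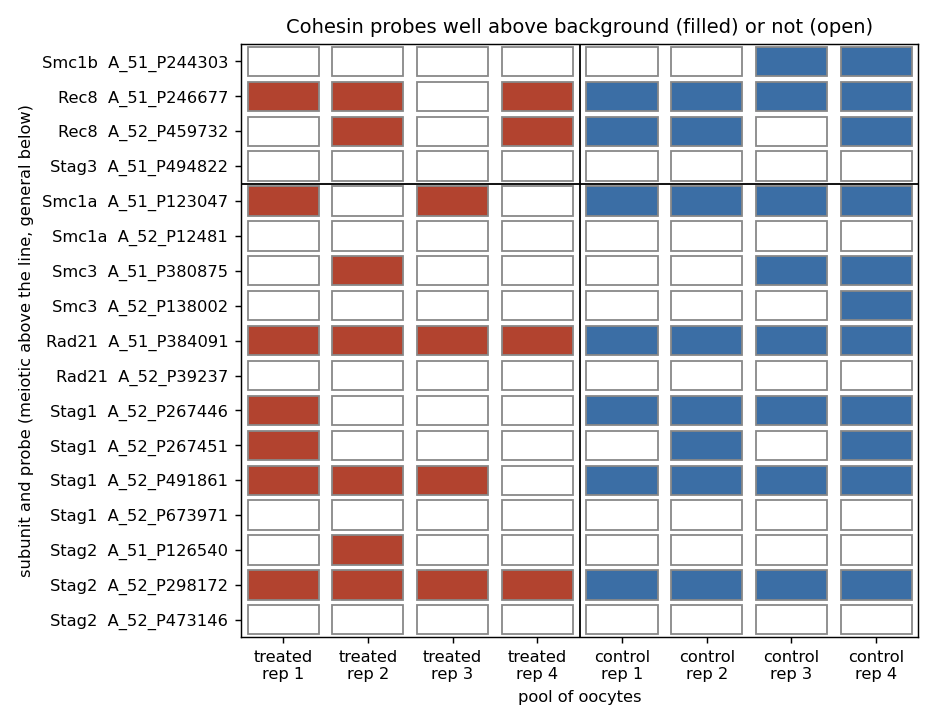
Each row is 1 of the 17 cohesin probes and each column 1 of the 8 pools (treated left, control right, replicates 1 to 4), with a filled cell where the scanner software called the probe well above background. Stag3 is open throughout, Smc1b is filled in 2 control pools, and the 3′ probes of Rad21 and Stag2 are filled in all 8 pools.

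A probe entered the test when 1 channel was called above background on 3 or 4 of the 4 arrays. That left 7 cohesin probes of 5 genes: 2 probes of Rec8, 2 of Stag1, and 1 each of Smc1a, Rad21 and Stag2. The 4 meiotic probes gave 2 kept probes, both of Rec8, and the 13 general probes gave 5. Smc1b, Stag3 and Smc3 had none, so every tested statement about meiotic subunits rests on Rec8 alone.

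The comparison asks which cohesin transcripts differed between treated and control oocytes. With limma's moderated test of the log2 ratio (treated over control) and Benjamini-Hochberg adjustment over all 8115 kept probes, 0 of the 7 cohesin probes passed an adjusted p of 0.05, against 0 of 8115 probes in all (0%). At an unadjusted p under 0.05, 1 of the 7 passed, a Stag1 probe with a lower value in treated oocytes. Over all kept probes 3.22% passed that threshold with lower values and 0.776% with higher values. The Stag1 probe met the filter through the control channel alone, with 1 treated and 4 control pools well above background. So did the Smc1a probe, with 2 treated and 4 control pools, and the upstream Rec8 probe, with 2 treated and 3 control pools. Such an entry favours lower treated values, so the ratios of these probes cannot be read apart from the filter. The mean log2 ratio was below 0 for 4 of the 7 and above 0 for 3, with a median of -0.03, beside a median of -0.02 over all kept probes. The means of the 7 probes ran from -0.85 to 0.15. With 4 arrays the 95% confidence intervals were wide: the Rec8 3′ probe's ran from -0.40 to 0.47 and that of the second kept Stag1 probe from -1.44 to 1.39.

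Among the SMC proteins, the arms of the ring, Smc1b encodes the meiotic form of SMC1. Its probe read 37.6, 39.7, 36.4 and 38.9 intensity units in treated replicates 1 to 4, against 41.8, 45.2, 133 and 76.6 in control replicates 1 to 4. The treated values lay close together, and control replicates 3 and 4 were the high ones and the ones called above background. The normalized log2 level averaged 6.29 ± 0.18 in treated and 6.56 ± 0.47 in control pools (SD, n = 4 each), and the groups overlapped. No fold is given, because the treated pools and control replicates 1 and 2 were not measured above background. In the limma fit without the filter on dim probes, Smc1b had an adjusted p of 0.873.

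Smc1a, the general SMC1, was read by a 3′ probe with 162, 38.6, 56.8 and 44.6 intensity units in treated replicates 1 to 4, against 84, 71, 437 and 588 in control replicates 1 to 4. Control replicates 3 and 4 were high, treated replicate 1 was the highest treated pool, and the groups overlapped. After normalization the log2 ratio was 0.08, -0.10, -1.15 and -2.22 on replicates 1 to 4. The mean was -0.85 ± 0.42 (SE, n = 4), with a 95% confidence interval of -1.90 to 0.21 and an adjusted p of 0.934 in limma. This was the lowest mean of the kept cohesin probes and rested largely on replicates 3 and 4: without replicate 4 it was -0.39.

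The Smc1a 3′ probe was not well above background in treated replicates 2 and 4, so the size of its ratio there depends on how background was handled. In the authors' deposited table, its log2 ratio was 0.06, -3.09, -1.98 and -5.40 on replicates 1 to 4, against 0.08, -0.10, -1.15 and -2.22 here. The upstream Smc1a probe was not well above background in any pool and read 42.2 to 50.6 units in treated and 47.5 to 53.8 units in control pools.

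Smc3 encodes the SMC subunit common to meiotic and general rings and so has no meiotic counterpart. The probe A_51_P380875 read 44.6, 61.7, 41.6 and 45.3 units in treated replicates 1 to 4, against 44.4, 58.9, 56.0 and 66.3 in control replicates 1 to 4. It was well above background in treated replicate 2 and in control replicates 3 and 4, and the groups overlapped. The second Smc3 probe, A_52_P138002, was above background in 1 control pool and 0 treated pools, and no fold is given for it. Neither probe entered the test.

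Among the kleisins, the subunits that close the ring, Rec8 had 2 kept probes, both of them dim. The 3′ probe read 55.7, 65.9, 41.7 and 64.3 units in treated replicates 1 to 4, against 58.4, 72.5, 49.0 and 71.5 in control replicates 1 to 4. These readings of the pools of an array were close to each other throughout, but they include background light. On replicate 3 that background was 33 units in the treated and 25 units in the control channel. Treated replicate 3 was the 1 pool in which this probe missed the background call. The upstream probe read 43.8, 57.8, 42.2 and 55.0 units in treated replicates 1 to 4, against 49.7, 61.9, 43.7 and 54.3 in control replicates 1 to 4. It was well above background in 2 treated and 3 control pools. Both probes had signals only slightly above their local background, at 1.18 to 1.80 times in treated and 1.75 to 2.68 times in control pools.

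The log2 ratio of the Rec8 3′ probe was -0.26, 0.10, 0.06 and 0.25 on replicates 1 to 4, and that of the upstream probe -0.24, 0.05, 0.18 and 0.16. Both were below 0 on replicate 1 and above 0 on the other 3 arrays. The means were 0.03 ± 0.17 and 0.04 ± 0.17 (SE, n = 4), with limma's adjusted p at 0.984 for each. At such signals the background offset of 50 draws ratios toward 0. In the authors' deposited table the log2 ratio of the Rec8 3′ probe was -1.0, 1.01, -0.18 and 0.64 on replicates 1 to 4, and that of the upstream probe -1.65, 0.85, 0.74 and 0.94, so the probes had opposite signs on replicate 3. With the sign of replicate 1 turned, the Rec8 means here were 0.17 and 0.16, with adjusted p of 0.637 and 0.65 in limma. Replicate 1 was the only array below 0, so turning it puts all 4 above 0 by construction. Turning it also raised the number of all kept probes with higher values at an unadjusted limma p under 0.05 from 63 to 601. For comparison, 58.2% of the 909 genes with exactly 2 kept probes had means of the same sign, and the median distance between their probes was 0.24 on the log2 scale.

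Rad21, the general kleisin that also acts outside meiosis, read 10880.5, 1237, 1901 and 4612 units in treated replicates 1 to 4, against 3231, 2556, 11597 and 20500 in control replicates 1 to 4, all at the 3′ probe. The treated pool was the brighter one on replicate 1 and the dimmer one on replicates 2 to 4 before normalization, as for the bright end of the whole array. The normalized log2 ratio was 0.34, 0.19, -0.49 and -0.39 on replicates 1 to 4. Arrays thus lay on both sides of 0, with a mean of -0.09 ± 0.22 (SE, n = 4), a 95% confidence interval of -0.63 to 0.46 and an adjusted p of 0.966 in limma. The upstream Rad21 probe was not well above background in any pool and read 38.7 to 43.6 units in treated and 39.2 to 48.7 units in control pools.

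Among the STAG proteins, which bind the kleisin and are needed for the ring to stay on chromatin, Stag3 is the meiotic form. Its only probe, at chr5:137257699-137257758 on the plus strand, read 41.4, 41.8, 35.1 and 37.8 units in treated replicates 1 to 4, against 37.3, 42.0, 36.9 and 40.7 in control replicates 1 to 4. No pool stood out, and no difference was detectable at this signal. A probe not well above background has no measured level, so no fold is given.

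Stag1, a general STAG protein, had 4 probes, of which 2 were kept. Its 3′ probe A_52_P267446, at chr9:100601280-100601339 on the plus strand, read 146, 47.1, 35.2 and 43.9 units in treated replicates 1 to 4, against 216, 237, 67.4 and 129 in control replicates 1 to 4. The control pool was the brighter one on all 4 arrays, although treated replicate 1 exceeded control replicates 3 and 4. Replicate 1 was the only treated array with this probe well above background, while all 4 control pools had it.
The first 30 bases of that probe, ending inside the third of its stop triplets, are shown because it had the lowest p among the members.
Stag1 3′ probe A_52_P267446: cTGAcgatctcctgTGAacaccacatgcTG

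The log2 ratio of the Stag1 3′ probe was -1.35, -0.51, -0.27 and -0.74 on replicates 1 to 4, below 0 on 4 of 4 arrays. It was the 1 kept cohesin probe of 7 with that pattern under the labelled dye direction. This probe met the filter through the control channel alone, which favours ratios below 0. With the sign of replicate 1 turned, this probe's mean was -0.04 and that of the second kept Stag1 probe -1.0. Of all kept probes with 4 values, 9.18% were below 0 on all 4 arrays and 3.04% above 0 on all 4. The mean was -0.72 ± 0.23 (SE, n = 4), with a 95% confidence interval of -1.29 to -0.14, an unadjusted p of 0.0232 and an adjusted p of 0.934 in limma. In the authors' deposited table the log2 ratio of this Stag1 probe was -2.09, -3.64, -3.51 and -3.11 on replicates 1 to 4.

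The second kept Stag1 probe, A_52_P491861, lies 1016 bases upstream of the first in the genome, at chr9:100600264-100600323. It read 438, 118, 46.2 and 41.4 units in treated replicates 1 to 4, against 49.3, 164, 273 and 241 in control replicates 1 to 4. Treated replicate 1 was the high treated pool and control replicate 1 the low control pool. Its log2 ratio was 1.94, 0.24, -0.93 and -1.36 on replicates 1 to 4, a mean of -0.03 ± 0.57 (SE, n = 4) with an adjusted p of 0.996 in limma. On replicate 1 the 2 Stag1 probes therefore pointed in opposite directions, at -1.35 and 1.94. Between them lies A_52_P267451, 623 bases upstream of the first, which was well above background in 1 treated and 2 control pools and read 114, 42.3, 35.2 and 42.9 units in treated replicates 1 to 4, against 39.8, 122, 41.1 and 92.1 in control replicates 1 to 4. The fourth Stag1 probe was not well above background in any pool.

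Stag2, the other general STAG protein, is encoded on the X chromosome. Its 3′ probe read 994, 219, 227 and 547 units in treated replicates 1 to 4, against 365, 412, 561 and 1888 in control replicates 1 to 4. The normalized log2 ratio was 0.31, 0.22, 0.37 and -0.30 on replicates 1 to 4, above 0 on 3 of 4 arrays. The mean was 0.15 ± 0.19 (SE, n = 4), with a 95% confidence interval of -0.33 to 0.63 and an adjusted p of 0.939 in limma. The upstream probe A_51_P126540 was well above background in 1 treated pool and 0 control pools, with no fold to give, and the probe A_52_P473146 in none.

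**Figure D2:**
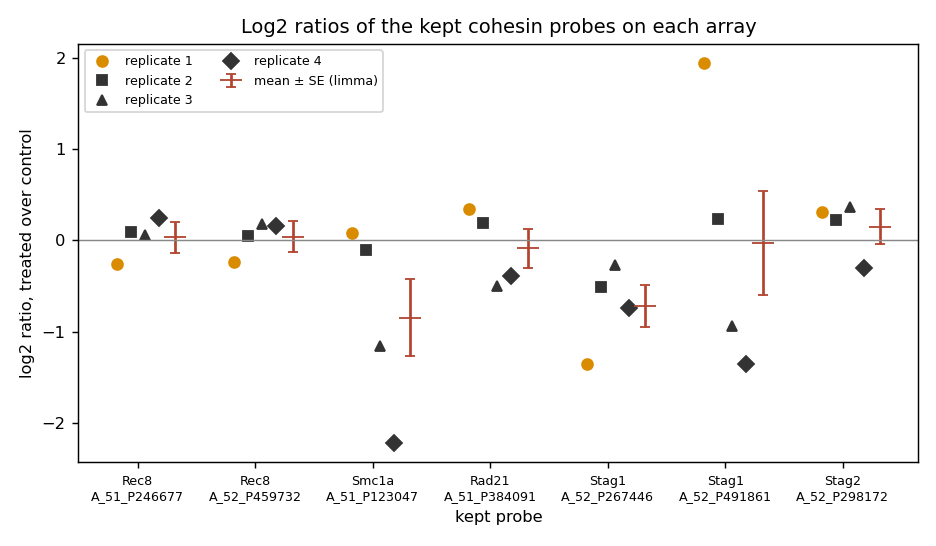
Log2 ratios (treated over control) of the 7 kept cohesin probes, 1 point per array with replicate 1 in orange, and the limma mean with its SE. The Stag1 probe A_52_P267446 lies below 0 on 4 of 4 arrays, while the points of Smc1a reach from 0.08 to -2.22 and those of the second Stag1 probe from 1.94 to -1.36.

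**Figure D3:**
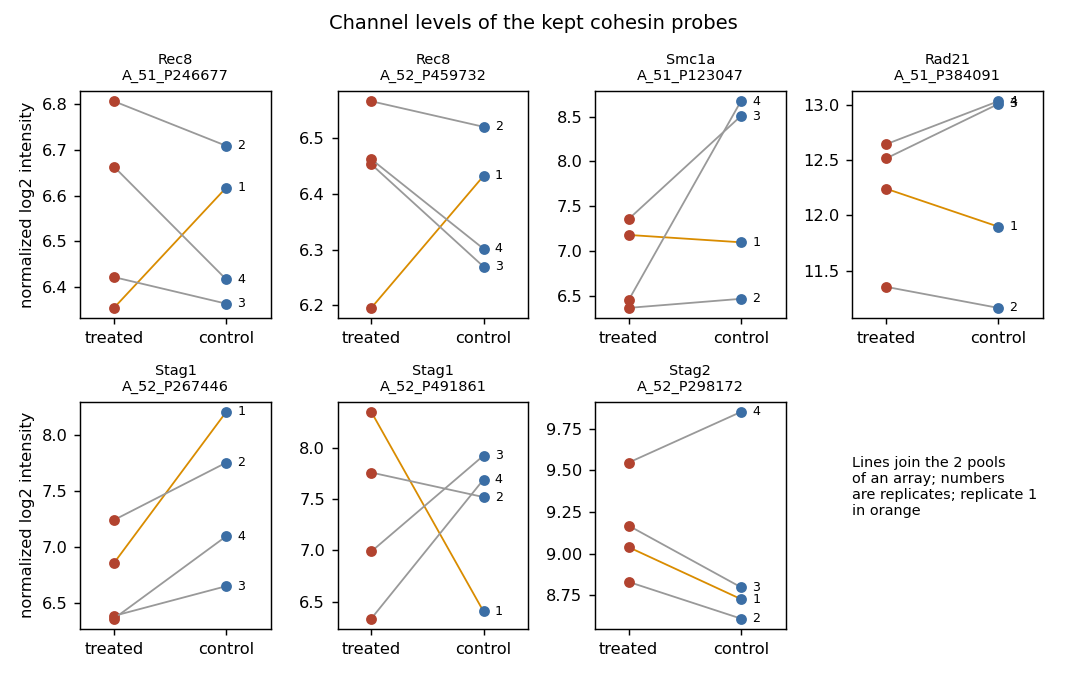
Normalized log2 intensity of the treated and the control pool for each kept cohesin probe, with a line joining the pools of an array, the replicate number beside it and replicate 1 in orange. Each panel has its own axis, and levels are not comparable between panels. Treated and control values overlap across arrays in all 7 panels, with the pairing shown by the lines.

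Taken across arrays, normalized levels of treated and control pools overlapped for all 17 cohesin probes. The share of all probes on the array with such overlap was not computed. Overlap across arrays also sets aside the pairing of pools: the Stag1 3′ probe counts as overlapping although its ratio was below 0 on 4 of 4 arrays. For the 3′ probes the log2 level averaged 6.84 ± 0.50 in treated and 7.69 ± 1.08 in control pools for Smc1a, and 6.71 ± 0.42 in treated and 7.43 ± 0.69 in control pools for Stag1 (SD, n = 4 each). It averaged 12.19 ± 0.58 in treated and 12.28 ± 0.91 in control pools for Rad21, and 9.15 ± 0.30 in treated and 9.0 ± 0.57 in control pools for Stag2. For the Rec8 3′ probe the averages were 6.56 ± 0.21 in treated and 6.53 ± 0.16 in control pools. The spread between pools of one kind was thus larger than the mean difference for Rec8, Rad21 and Stag2. For Smc1a the difference of -0.85 was smaller in size than the control SD of 1.08 and larger than the treated SD of 0.50. For Stag1 the difference of -0.72 was slightly larger in size than the control SD of 0.69. In both genes the control pools spread more than the treated ones.

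The next question was whether meiotic and general subunits responded differently. Over kept probes this sets Rec8 against the mean of Smc1a, Rad21, Stag1 and Stag2, each gene by the mean of its kept probes. Rec8 averaged 0.04 ± 0.20 (SD, n = 4) on the log2 ratio scale, with a range over arrays of -0.25 to 0.20. The gene means of the general subunits were -0.85 for Smc1a, -0.37 for Stag1, -0.09 for Rad21 and 0.15 for Stag2. Neighbours in that order do not differ beyond their spread, with SDs of 1.07, 0.58, 0.42 and 0.31 in the same order.

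The meiotic minus general difference was -0.51, 0.03, 0.59 and 1.19 on replicates 1 to 4, with a mean of 0.33 ± 0.73 (SD, n = 4). It was above 0 on 3 of 4 arrays and smaller than the spread between arrays. Without replicate 4 the mean was 0.04, and without replicate 1 it was 0.60 ± 0.58 (SD, n = 3). With the sign of replicate 1 turned it was 0.58 ± 0.48 (SD, n = 4), larger than the spread between arrays. It is a description of the chosen members, with no test. The Smc1a probe and the Stag1 3′ probe met the filter through the control channel alone, which favours lower values among the general subunits. The upstream Rec8 probe met it in the same way, so the difference over kept probes cannot be read apart from the filter. Taking all 17 probes, so that Smc1b and Stag3 count too, the difference was -0.11, 0.02, 0.08 and 0.36, with a mean of 0.09 ± 0.20 (SD, n = 4), but many of those probes lie at background, where the offset draws ratios toward 0.

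Of the 3 pairs of meiotic and general counterparts, Rec8 and Rad21 was the one with kept probes on both sides. Rec8 minus Rad21 was -0.59, -0.12, 0.62 and 0.59 on replicates 1 to 4, with 2 arrays on each side of 0 and a mean of 0.12 ± 0.59 (SD, n = 4). An exact sign-flip test over the 4 arrays gave a two-sided p of 0.875, where the smallest p that 4 arrays allow is 2 of 16 sign patterns and so lies above 0.05. The mean was -0.04 without replicate 3 and -0.03 without replicate 4, and 0.42 ± 0.36 (SD, n = 4) with the sign of replicate 1 turned. The other pairs could be compared only over all probes, mostly near background. Smc1b minus Smc1a was 0.01, 0.04, 0.02 and 0.71 on replicates 1 to 4, a mean of 0.19 ± 0.34 (SD, n = 4). Stag3 minus the mean of Stag1 and Stag2 was 0.02, 0.04, 0.17 and 0.27, a mean of 0.13 ± 0.12 (SD, n = 4). Both were above 0 on 4 of 4 arrays, and their exact two-sided p is the smallest that 4 arrays allow, so it cannot reach 0.05. On replicate 1 the differences were only 0.007 and 0.02, and with its sign turned that array lies below 0 for both. The probes also differ in base composition: the Rec8 probes hold 51.7% and 55% G and C, against 41.7% for Rad21, 45% for Smc1a, 45% and 35% for Stag1 and 35% for Stag2. Across all probes of an array the log2 ratio correlated with GC percentage at -0.18, 0.12, 0.23 and 0.22 on replicates 1 to 4, so replicate 1 stood apart here too. With each array's ratios adjusted for GC percentage, the meiotic minus general difference was 0.24 ± 0.49 and Rec8 minus Rad21 was 0.06 ± 0.33 (SD, n = 4 each). Base composition as a source of these differences was not tested.

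**Figure D4:**
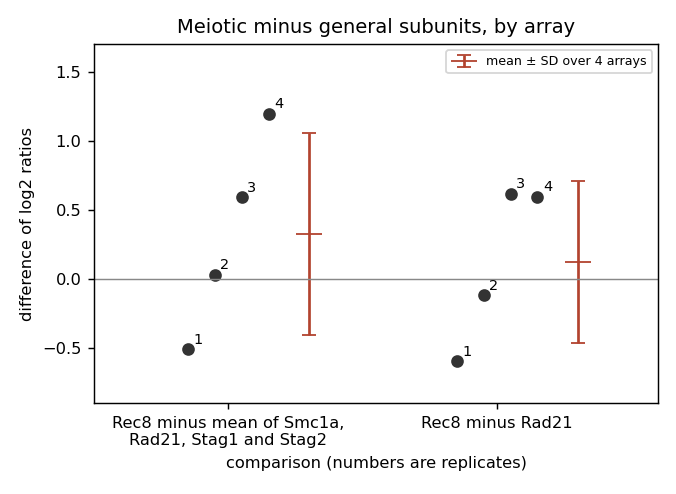
Difference of log2 ratios on each array (numbers are replicates), with the mean and SD over 4 arrays. Rec8 minus the general subunits lies between -0.51 and 1.19 and Rec8 minus Rad21 between -0.59 and 0.62, so both sets of points lie on both sides of 0.

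Detection differed between probes of the same subunit. For the 6 subunits with 2 or more probes, the most 3′ probe was kept for 5 of 6 (83.3%), and 2 of the 9 probes further upstream were kept (22.2%). Over all 8326 genes with 2 or more mapped probes, 32.8% of the most 3′ probes and 16.3% of the others were kept. In Rad21 the 3′ probe was well above background in 8 of 8 pools and the probe 1406 bases upstream in 0. In Smc1a the counts were 6 pools at the 3′ probe and 0 at the probe 15139 bases upstream, and in Stag2 they were 8, 1 and 0 pools at 0, 9816 and 64029 bases upstream. The Rec8 probes differed less, with 7 pools at the 3′ probe and 5 at the probe 631 bases upstream. Stag1 did not follow this order: its 3′ probe was above background in 5 pools and the probe 1016 bases upstream in 7. Smc1b and Stag3 had 1 probe each, so the same cannot be asked of them.

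**Figure D5:**
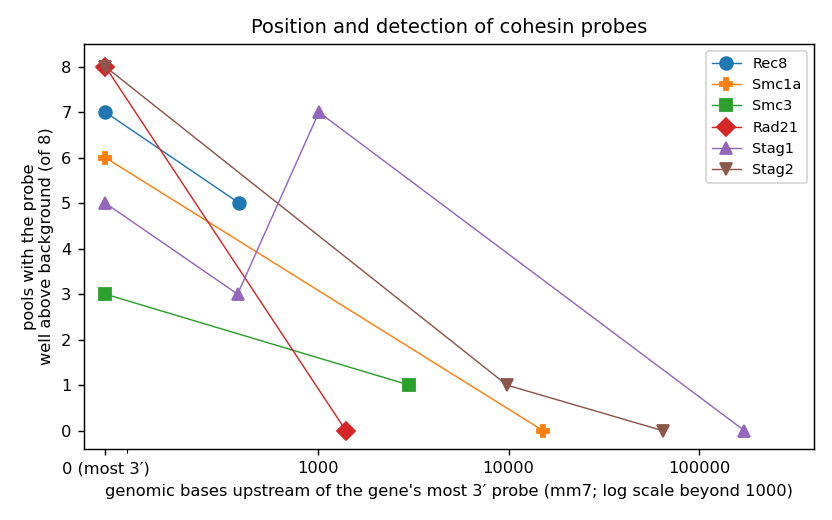
Number of pools (of 8) in which each probe was well above background, against its distance in genomic bases upstream of the gene's most 3′ probe (linear at first, logarithmic beyond the first labelled tick). Probes far upstream were detected in 0 or 1 pool, and the Rad21 and Stag2 points coincide at 8 pools on the left.

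No kept probe of the genes that load, protect, cut or resemble cohesin passed the adjusted test either. Of 43 such genes in 6 groups, 41 were found on the array with 77 probes, and 33 probes of 25 genes were kept. With limma's test 0 of the 33 passed and 1 had an unadjusted p under 0.05. Means were below 0 for 23 and above 0 for 10, with a median of -0.13, beside 4246 below and 3869 above 0 and a median of -0.02 over all kept probes. Several of the 33 met the filter through the control channel alone, which favours means below 0. These counts and the group medians therefore cannot be read apart from the filter. By group the median was -0.26 for loading and release (2 kept probes), -0.14 for acetylation (4), -0.10 for protection and cleavage (10), -0.16 for the meiotic axis (7), -0.13 for condensins (7) and 0.04 for the Smc5/6 complex (3).

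In the group for loading and release, Wapl, which opens the ring and releases it from chromatin, had a log2 ratio of -0.14 ± 0.19 at one probe and -0.38 ± 0.52 at the other (SE, n = 4 each), the second with 1.58 on replicate 1. Both Wapl probes met the filter through the control channel alone, the first with 1 treated and 3 control pools. The second did so with 2 treated and 3 control pools. The loader genes Nipbl and Mau2 and the Pds5a and Pds5b genes had no kept probe. Among the acetylation genes, Esco1, which acetylates SMC3, stood at -0.50 ± 0.22 (SE, n = 4) with all 4 arrays below 0 at one probe and at 0.24 ± 0.40 at the other. The first of these probes met the filter through the control channel alone, with 2 treated and 4 control pools. The other did too, with 2 treated and 3 control pools. With the sign of replicate 1 turned, the mean of the first was -0.36. Cdca5, which encodes sororin, the antagonist of WAPL, stood at -0.24 ± 0.21 (SE) over 3 arrays, since 1 spot carried an outlier flag. Under the labelled dye direction each of these probes had an adjusted p of 0.934 or more in limma.

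Among the genes of protection and cleavage, Bub1, a checkpoint kinase that helps to bring shugoshin to centromeres, stood at -0.84 ± 0.54 (SE, n = 4). Its probe met the filter through the control channel alone, with 2 treated and 4 control pools. Pttg1, which encodes the separase inhibitor securin, stood at 0.22 ± 0.20 (SE, n = 4). Espl1, separase itself, had no kept probe. On the meiotic axis, Sycp3, a protein of the chromosome core, stood at -0.37 ± 0.25 and Hormad1, a monitor of chromosome pairing, at -0.23 ± 0.23 (SE, n = 4 each). None of these had all 4 arrays on one side of 0.

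Condensins compact chromosomes and share the SMC architecture. Ncapg2, a subunit of condensin II, had the lowest unadjusted p among the 33 probes at 0.00782, with an adjusted p of 0.934 in limma. Its log2 ratio was -0.90, -0.48, -1.58 and -0.79 on replicates 1 to 4, a mean of -0.94 ± 0.23 (SE, n = 4), below 0 on 4 of 4 arrays. Of all kept probes with 4 values, 9.18% had that pattern. With the sign of replicate 1 turned, the Ncapg2 mean was -0.49, with an adjusted p of 0.649 in limma. Smc4, common to both condensins, gave 0.50, -0.23, -2.22 and -3.63 on replicates 1 to 4 at one probe, a mean of -1.39 ± 0.71 (SE, n = 4). The other Smc4 probe had a mean of -0.08 ± 0.16. It met the filter through the control channel alone, with 0 treated and 3 control pools. In the Smc5/6 complex, which acts in DNA repair, Smc6 stood at -0.67 ± 0.39 and Nsmce1 at 0.15 ± 0.22 (SE, n = 4 each). The kept Smc6 probe met the filter through the control channel alone, with 1 treated and 3 control pools.

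Probes with ratios most like those of Rec8 were sought by the root-mean-square difference of the 4 log2 ratios from the Rec8 3′ probe, over 7213 probes compared. The closest were Gins2 at 0.034, Aqp2 at 0.039 and Gbx1 at 0.041. Gins2 gave -0.29, 0.04, 0.08 and 0.25 on replicates 1 to 4, against -0.26, 0.10, 0.06 and 0.25 for Rec8. With 4 values a probe, such likeness is a description of these arrays.

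Markers of other cells were read beside the cohesin values. Of the 20 probes for cumulus and granulosa cells, the somatic cells around the oocyte, 5, 2, 4 and 6 were well above background in treated replicates 1 to 4 and 6, 5, 10 and 11 in control replicates 1 to 4. Their summed intensity was 1239, 804, 656 and 2450 units in treated replicates 1 to 4, against 944, 2956, 3523 and 5829 in control replicates 1 to 4. Of the 14 genes on that list, Amh, Foxl2, Fshr and Star were not well above background in any pool. Amhr2, Inhba and Has2 were well above it in 0 treated pools and at most 1 control pool, and Ptx3 in 0 treated and 2 control pools. The kept probe of Tnfaip6 was well above background in 4 treated and 4 control pools. Those of Cyp19a1 and Ptgs2 were so in 3 treated and 4 control pools, and that of Nr5a2 in 3 treated and 3 control pools. Inha's kept probe was so in 2 treated and 4 control pools, and that of Hsd17b1 in 0 treated and 3 control pools. The second probe of Inha was detected in no pool. That of Cyp19a1 was detected in 0 treated pools and 1 control pool, and that of Ptgs2 in 2 treated and 2 control pools. Of 8 blood cell probes, 2 or 3 were well above background in treated pools and 2 in control pools, with sums of 578 to 5586 units in treated and 2112 to 7986 units in control pools. Oocyte markers summed to 216082, 32076, 51893 and 68614 units in treated replicates 1 to 4, against 66648, 101400, 161931 and 207425 in control replicates 1 to 4. The summed signals of all 3 lists were thus higher in the treated pool on replicate 1 and lower on replicates 2 to 4. Fewer cumulus and granulosa probes were detected in the treated pool on all 4 arrays, though on replicate 1 the counts were 5 and 6. Over the whole array fewer spots were also detected in the treated pool on replicates 2 to 4: 7192, 7049 and 8146, against 9505, 10102 and 10837 in the control pools. Whether these probes depart from the array as a whole was not tested. The part of these cells in the Smc1a, Smc1b and Stag1 values was not tested.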

How the data were processed

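RNA from each pool was amplified, labelled and hybridised to 4 two-colour Agilent arrays, per the labels' protocols. The submitters' processing notes name Agilent Feature Extraction 9.5.1.1. The deposited scanner files give each spot's mean intensity and median background intensity in both channels. They also give a log10 ratio of red over green from signals already corrected by that software for background and dye, per the file headers. The authors' value table equals that log10 ratio within 5e-10. Converted to log2, it served as an alternative.

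Starting from the deposited intensity values, limma 3.58.1 (R 4.3.3) corrected background (normexp, offset 50) and normalized within arrays (loess, control spots given weight 0). Spots with outlier flags were left out, spots of a probe averaged, and 8115 of 41174 probes kept because 1 channel exceeded background clearly on 3 or 4 of the 4 arrays. Each probe's mean log2 ratio was set against 0 by lmFit and eBayes. P-values were adjusted by Benjamini-Hochberg across the kept probes, an approach tested on simulated data. Levels per channel follow Aquantile. Gene names of kept probes were updated through RefSeq's GRCm38.p6 table, used for names only: the accession named 5907, the symbol 1012 and a synonym 485, while 711 kept the file's name. All arrays share 1 slide and 1 scan.

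The members, the lists and the tests were chosen with earlier results of these data known. Of each regulator group the text names the 2 kept genes with the smallest p, or 1 where 1 was kept, and for likeness the 3 nearest named probes. Genes said to have no kept probe, and second probes of a named gene, were added after their values were seen. Alternatives covered background, normalization, filter, probe choice, eBayes settings, array weights, the authors' values, each array left out and the sign of replicate 1. An adjustment for GC percentage was added after seeing the data.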

Additional observations from a re-analysis of the deposited data

Results flagged for a closer look

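Smc6, a core subunit of the Smc5/6 complex, had a log2 ratio of -2.13 on replicate 1 at the probe A_52_P139461, while the other 3 arrays lay between -0.39 and -0.07. The gap took up more of the range over 4 arrays than Dixon's 95% critical value allows, and chance flags about 1 in 20 such groups. The probe was well above background in 1 treated and 3 control pools. Replicate 1 is also the array whose ratios correlated below 0 with those of the others, and its part in this value was not tested.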

How the results depend on the processing

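Under all 16 alternatives 0 probes of the whole array, of the cohesin subunits and of the regulators passed an adjusted p of 0.05 in limma. The lowest adjusted p on the array was 0.934 in the analysis as reported and 0.0594 with the sign of replicate 1 turned. Rec8 minus the general subunits moved to 1.28 with the scanner software's processed signals and likewise with the authors' values, and ran from 0.04 to 0.60 when each array was left out. Rec8 minus Rad21 ran from -0.04 to 0.36 when each array was left out, and was 0.84 with median centring, where Rad21 itself was -0.86. Median centring moved the median of all kept probes to -0.32 and turned the Rec8 probes to -0.027 and -0.010, Stag2 to -0.46, Nsmce1 to -0.14 and Pttg1 to -0.61. Relative to that median they stood at 0.29, 0.31, -0.14, 0.18 and -0.29, in the same order. Scaling between arrays turned Rad21 to 0.058, the second kept Stag1 probe to 0.13 and Nsmce1 to -0.15, and array weights turned Nsmce1 to -0.10. Processed signals, whose median over all kept probes was -0.13, and the authors' values both turned Pttg1 to -0.32, or -0.19 relative to that median. With the sign of replicate 1 turned, Stag2 was -0.0065 and Smc6 was 0.39. After GC adjustment the upstream Rec8 probe was -0.0195 and the second kept Stag1 probe 0.043. With each array left out, the Rec8 probes ran from -0.036 to 0.13 and from -0.0101 to 0.13, Rad21 from -0.23 to 0.0485, and the second kept Stag1 probe from -0.68 to 0.42. The Smc1a mean stayed below 0 throughout, between -2.61 and -0.39, and that of the Stag1 3′ probe between -3.09 and -0.04, the extremes being the processed signals and, for Stag1, replicate 1 turned. The cause of these changes was not tested. A filter on both channels of all 4 arrays left only Rad21 and Stag2, so it gives no meiotic value. Each ratio pairs the treated and control pools of 1 array, so the reported test is itself the paired one and a replicate block has nothing to add. A slide or scan block could not be fitted because all arrays share 1 slide and 1 scan. Signal over background limits what can be said of Smc1b, Stag3 and Smc3.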
